A study of Rattus norvegicus with 63 samples.

Results

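Carriers of the solute carrier (Slc) superfamily that move amino acids, sugars and inositol were followed in rat kidney in the hours and days that followed a methylprednisolone injection; the drug is a synthetic glucocorticoid. Members were the probe sets of the main array type with 1 gene symbol that starts with Slc1a, Slc2a, Slc3a, Slc5a, Slc6a, Slc7a, Slc36a, Slc38a or Slc43a. Within these families no probe set was picked by its signals, but the families were chosen with earlier results of these data known. The members were 69 of the 15923 probe sets and stood for 52 genes, of which 13 had several probe sets. By what the gene's product is known to move, the 42 probe sets bright enough to be tested comprised 23 of amino acid carriers or their heavy chains, 8 of sugar carriers, 2 of the inositol carrier Slc2a13 and 8 of carriers of other substrates such as taurine and creatine. The remaining tested probe set is that of Slc7a6os, a gene on the strand opposite Slc7a6 that the symbol rule takes in although it encodes no carrier. The 27 other members lay below the floor on signals and were not tested.

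Total RNA of rat kidney was hybridised to Affymetrix arrays, on which several short probes for 1 transcript make a probe set. The groups were kidneys of rats without injection (0 h, 4 libraries) and kidneys taken 0.25, 0.5, 0.75, 1, 2, 4, 5, 5.5, 6, 7, 8, 12, 18, 30, 48 and 72 h after the injection (3 libraries each), and a second array type covered 0 h (4 libraries), 2 h (3) and 6 h (3). The labels give neither dose, strain, age nor hour of day, and kidneys of uninjected rats, or of rats given vehicle, at the later times were not analysed here, so the effect of the drug and that of the time of day or the injection itself cannot be told apart. Nothing in the labels says that numbered libraries are separate animals, so p-values measure the spread between these libraries, which may be technical.

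In the kidney, cells of the proximal tubule take back nearly all filtered glucose and amino acids: sodium-coupled carriers of the brush border bring them into the cell, and facilitated carriers and exchangers of the basolateral side pass them on to the blood. Many exchangers of the Slc7 family are light chains that reach the membrane only when bound to a heavy chain, Slc3a1 in the brush border or Slc3a2 at the basolateral side. Inositol, taurine and betaine are osmolytes that cells of the medulla accumulate, and the glutamine that tubule cells take up feeds the making of ammonia.

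Signals are intensities on a linear scale, scaled per array by the authors. Differences are in log2(intensity + 7.63), so they understate the change of dim probe sets, and a signal averaged over libraries is the mean on that log2 scale turned back. A call means an adjusted p under 0.05 from limma with Benjamini-Hochberg adjustment over all 9520 tested probe sets. Times were pooled into windows of 0.25 to 1 h (12 libraries), 2 to 4 h (6), 5 to 8 h (15), 12 to 18 h (6) and 30 to 72 h (9), all of which share the same 4 libraries at 0 h. A bulk kidney sample cannot tell fewer cells of a type from less RNA per cell.

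All 7 reference genes of the glucocorticoid response were called higher at 2 to 4 h and at 5 to 8 h. Fkbp5, one of them, read 39.5 to 69.3 at 0 h and 628 to 702 at 4 h. The 15 proximal tubule markers had a summed signal of 32436 to 35654 at 0 h, 30293 to 38379 at 2 to 4 h and 26220 to 40479 at 5 to 8 h. Podocyte markers summed to 937 to 1260 at 0 h and 631 to 850 at 2 to 4 h, and 3 of 5 were called lower there. Endothelial markers summed to 1392 to 1696 at 0 h and 946 to 1172 at 2 to 4 h, with 3 of 6 called lower (Vwf lay below the floor on signals), and leukocyte markers to 1355 to 1702 and 2454 to 2977, with 5 of 8 called higher. Of the leukocyte list, Cd3e, Cd3g, Cd79b, Itgam and S100a8 lay below the floor on signals, and of the 9 liver markers 6 did (Alb, Ambp, Apoa1, Apoa2, Fgb and Hp). The liver markers summed to 338 to 503 at 0 h and 258 to 1933 at 2 to 4 h, and in 2 h replicate 2 Alb alone had a signal of 793. Genes of tubular injury and the acute phase summed to 911 to 3285 at 0 h and 6382 to 12299 at 2 to 4 h, and 6 of 8 were called higher there. The signal of Fga, one of these genes, was 11.4 to 68.5 at 0 h but 523 to 2509 in all 6 libraries of 2 to 4 h. Outside that window 7 libraries, 0.25 h replicate 2, 0.5 h replicate 3, 1 h replicate 2, 5 h replicate 2, 6 h replicate 1, 7 h replicate 3 and 8 h replicate 1, had Fga signals from 778 to 4459. A library was counted as high where Fga passed both 500 and 2 times the highest other library of its time. By this rule 0.25 h replicate 1, at 616, was not counted, since replicate 2 of that time was higher. Nor was any of the 6 libraries of 2 to 4 h, all of which stay in the fits without the 7. Those fits therefore do not take high Fga out of that window. The part of these markers in the differences below was not tested. Results are given without those 7 libraries where that ends a call or moves a called value by over 1.5 times. Calls gained without them are not named. Members lower at 2 to 4 h went from 3 to 5 and those lower at 2 to 4 h against 12 to 18 h from 6 to 8. Members called at any time went from 12 to 13, but these were not the same ones. Of the 12, Slc3a1 and Slc7a7 lost the call and Slc7a6 was not tested, so others were gained. At 5 to 8 h the count higher stayed at 2, both against 0 h and against 30 to 72 h. Since Slc7a6 was not tested there, another member was gained in each.

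Tested jointly over its 16 differences from 0 h (limma's F test), a probe set could be called at any time. This named 12 of the 42 tested members, or 28.6%, where 16.1% of all tested probe sets were called. Since members were chosen with earlier results of these data known, the difference between these shares was not tested. The 12 were 8 amino acid carriers or heavy chains (Slc1a1, Slc38a2, Slc38a3, Slc3a1, Slc7a1, Slc7a12, Slc7a6 and Slc7a7), 3 sugar carriers (Slc2a2, Slc2a5 and Slc5a2) and the inositol carrier Slc2a13, and none of the 8 probe sets of other carriers. Of the 12, Slc7a6 passed the floor on mean signals only through the windows in which it is high. With no floor its F test had an adjusted p of 0.000299. The F calls of Slc1a1, Slc38a2, Slc38a3, Slc7a6 and Slc7a12 were kept under every setting in which they were tested. Without arrays of letter b or c, letters that the array names carry and the labels do not explain, those 5 were the members called, and with array weights 20 members were. Adjusted p without these arrays was 0.0839 for Slc2a13, 0.11 for Slc2a2, 0.06 for Slc2a5, 0.394 for Slc5a2, 0.136 for Slc7a1, 0.149 for Slc7a7 and 0.563 for Slc3a1. Removal of any 1 of 30 libraries ended the F call of Slc5a2 (adjusted p up to 0.111), any 1 of 32 that of Slc3a1 (up to 0.232) and any 1 of 35 that of Slc7a7 (up to 0.0997). For Slc7a1 this held for 8 libraries (0.25 h replicates 2 and 3, replicates 1 and 3 of 2 h, 2 and 3 of 12 h and 1 and 2 of 48 h; up to 0.0692). For Slc2a5 it held for 5 (0.5 h replicate 1, replicates 1 and 2 of 4 h and 1 and 3 of 18 h; up to 0.0541). For Slc2a2 it held for 4 h replicate 3 (0.0522). Without the 7 libraries of high Fga the F calls of Slc3a1 (0.143) and Slc7a7 (0.0759) ended. At 0.25 to 1 h, 1 member was called higher and 0 lower, beside 0.62% and 0.042% of all tested probe sets. At 2 to 4 h, 2 were higher and 3 lower, beside 5.17% and 4.8%, and at 5 to 8 h 2 were higher and 3 lower, beside 4.98% and 4.73%. With 42 members tested, these counts lie near the shares of all probe sets. At 12 to 18 h no member was called in either direction, beside 0.284% and 0.105% of all probe sets, and 4 members had an unadjusted limma p under 0.05. At 30 to 72 h no member and no other probe set was called (0% in both directions), with 2 members at an unadjusted limma p under 0.05.

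**Figure D1:**
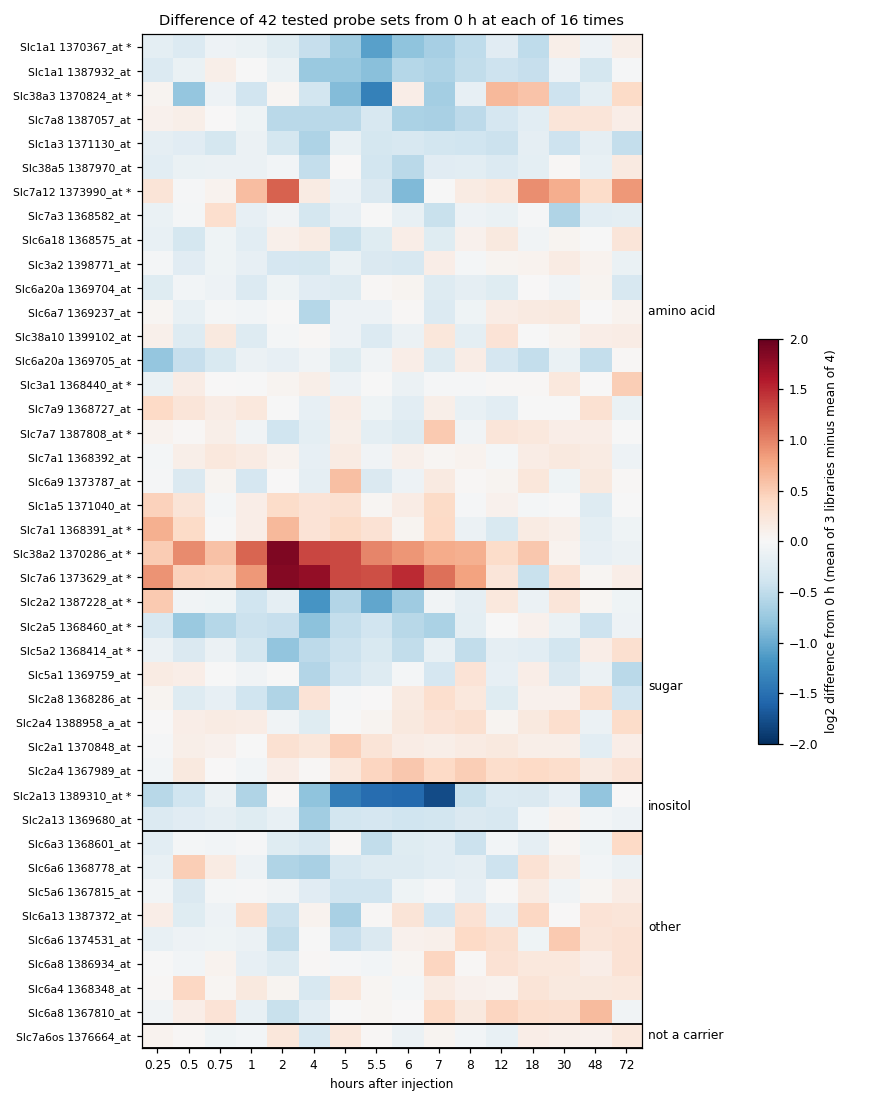
Log2 difference from 0 h (colour, blue lower and red higher) of the 42 tested probe sets (rows, grouped by substrate and ordered within each group by the difference at 5 to 8 h) at the 16 times after injection (columns, 3 libraries each against 4 at 0 h); an asterisk marks a call by the F test. Slc38a2 and Slc7a6 stand out in red from 2 to 6 h, and Slc1a1 and 1 of the 2 rows of Slc2a13 in blue between 4 and 7 h. Other rows were deep at single times, with Slc38a3 at -1.35 at 5.5 h, Slc2a2 at -1.17 at 4 h and Slc7a12 at 1.18 at 2 h.

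The sequence before the start of 3 carriers is given because Slc38a2 was one of the 2 members called higher at 2 to 4 h, and because Slc5a2 and Slc2a2 are the brush border and basolateral glucose carriers of the same tubule cells. The sequence of Slc7a6, the other member called higher, is not printed because its annotated start looked unlike a promoter. Each run holds the 250 bases before the annotated start, 5′ to 3′ on the gene's strand, from RefSeq on GRCr8, with matches to the searched motifs in capitals.
Slc38a2 (chr7:129742620-129742869, minus strand): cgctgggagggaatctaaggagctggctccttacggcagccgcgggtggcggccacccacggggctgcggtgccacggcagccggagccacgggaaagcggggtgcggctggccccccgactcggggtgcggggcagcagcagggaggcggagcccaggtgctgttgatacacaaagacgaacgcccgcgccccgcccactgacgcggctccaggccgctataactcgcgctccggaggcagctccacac
Slc5a2 (chr1:192277371-192277620, plus strand): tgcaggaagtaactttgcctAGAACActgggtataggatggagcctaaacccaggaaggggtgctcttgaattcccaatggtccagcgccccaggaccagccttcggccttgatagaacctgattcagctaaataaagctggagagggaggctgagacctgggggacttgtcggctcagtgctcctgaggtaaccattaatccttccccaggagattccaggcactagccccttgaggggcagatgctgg
Slc2a2 (chr2:113540120-113540369, plus strand): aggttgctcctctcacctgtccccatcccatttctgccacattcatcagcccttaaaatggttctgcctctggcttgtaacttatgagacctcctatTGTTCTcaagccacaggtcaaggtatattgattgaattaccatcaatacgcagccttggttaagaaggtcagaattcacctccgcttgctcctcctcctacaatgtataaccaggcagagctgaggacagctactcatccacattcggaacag
The motifs searched, 3 in all and on both strands, were the glucocorticoid receptor half-site AGAACA, which reads TGTTCT on the other strand, the amino acid response motif TGATGNAA and the HNF1 half-site GTTAAT. The half-site AGAACA was present once in the Slc5a2 run, beginning 230 bases before the start, and once as TGTTCT in the Slc2a2 run, 153 bases before it. None of the 3 motifs was found in the Slc38a2 run, which says only that these letters are not in that window. Of the 33469 promoters in the table, 17.5% held the receptor half-site, 3.4% the amino acid response motif and 6.45% the HNF1 half-site. Promoters of 40 of the 52 member genes were present, and 8 of these held the receptor half-site. They were Slc1a2, Slc2a2, Slc36a1, Slc38a4, Slc5a2, Slc6a17, Slc7a12 and Slc7a6, the last with the doubtful start. The amino acid response motif was held by 2 (Slc38a1 and Slc7a1) and the HNF1 half-site by 2 (Slc6a18 and Slc7a12). These matches are descriptions and not binding sites.

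Among the sodium-coupled neutral amino acid carriers, Slc38a2, which brings alanine, glutamine and other small neutral amino acids into cells, rose within hours and was back near the level of 0 h by 30 h. Its signals at 0 h were 121, 179, 160 and 157. They were 501, 594 and 654 at 2 h and 388, 447 and 360 at 4 h, so that all 6 libraries lay above every library of 0 h. Relative to 0 h the difference at 2 to 4 h was 1.60 (standard error 0.22, 3.04-fold, adjusted p 1.81e-06). At 5 to 8 h the lowest, median and highest signals were 174, 272 and 705, and 14 of 15 libraries lay above all of 0 h. That difference was 0.93 (standard error 0.19, adjusted p 0.000871), and without the 7 libraries of high Fga it was 0.76 (adjusted p 0.000267). In the 11 libraries of 5 to 8 h with low Fga, 10 lay above all of 0 h.

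The rise of Slc38a2 at 0.25 to 1 h was less firm. Signals there ran from 165 to 461 with a median of 259, and 11 of 12 libraries lay above all of 0 h, with a difference of 0.80 (standard error 0.20, adjusted p 0.041). The 3 of these 12 libraries counted as high in Fga had 302, 402 and 461, and without the 7 libraries of high Fga the difference was 0.65 (adjusted p 0.017). That fit still held 0.25 h replicate 1, with an Fga signal of 616. The call ended without any 1 of 10 libraries: 0 h replicate 1 (adjusted p 0.268), 2 (0.0767), 3 (0.132) and 4 (0.132), 0.25 h replicate 2 (0.0821), 0.5 h replicate 3 (0.0789), 0.75 h replicates 1 (0.0671) and 2 (0.0537), and 1 h replicates 1 (0.0543) and 2 (0.0804). It also ended without arrays of letter b or c (0.0778) and with no floor on signals (0.0609). At 12 to 18 h Slc38a2 ran from 193 to 282, with all 6 libraries above those of 0 h and no call (difference 0.46, adjusted p 0.866), and at 30 to 72 h from 107 to 210.

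**Figure D2:**
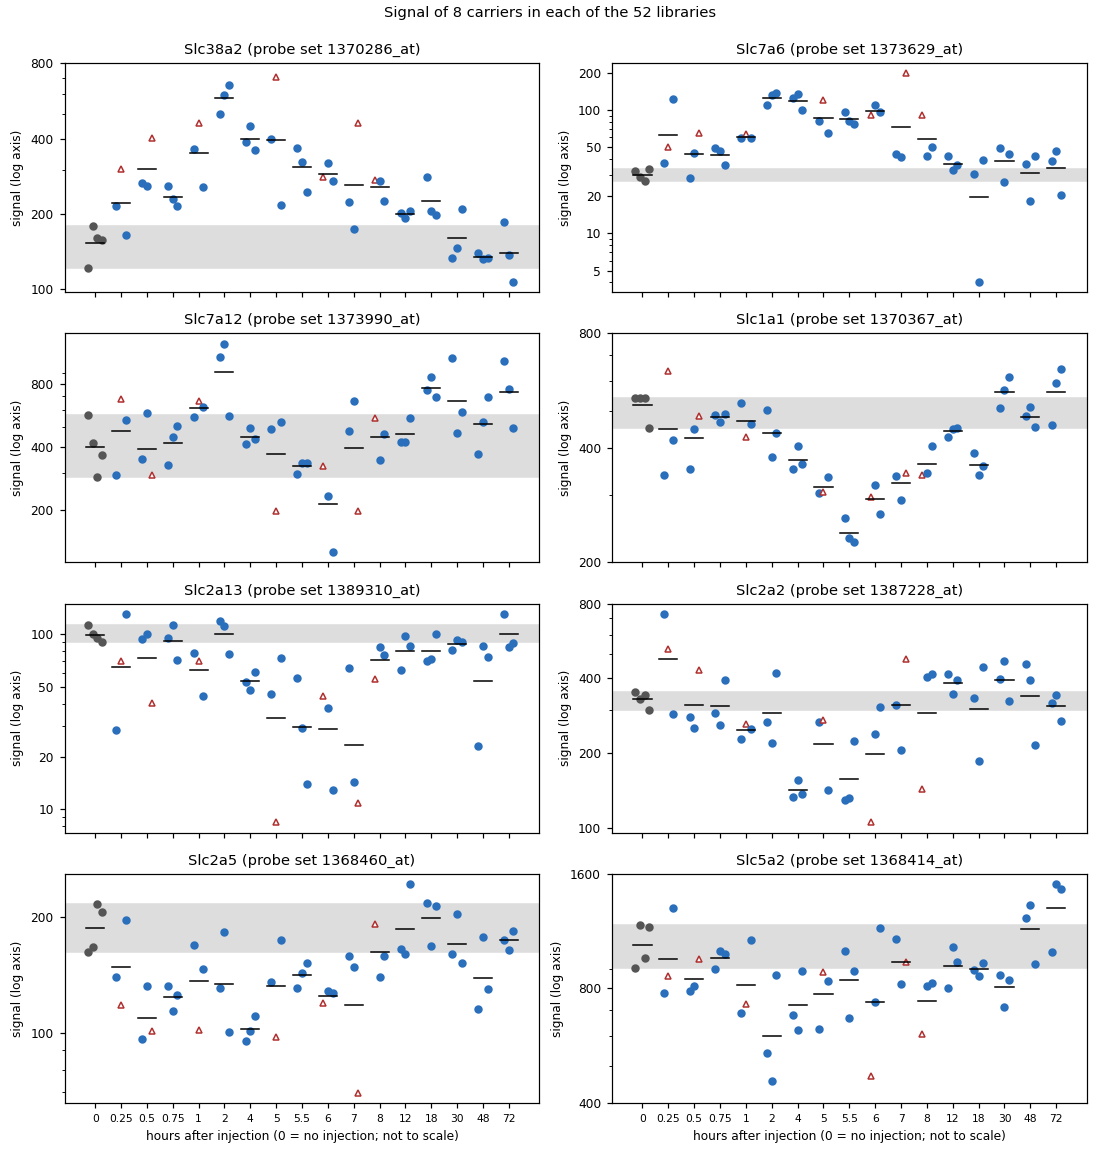
Signal (log axis) of 8 probe sets in each of the 52 libraries by hours after injection. Grey points are libraries without injection and the grey band spans them, and blue points are libraries after injection. Open red triangles are the 7 libraries counted as high in Fga. None of these is of 2 to 4 h, where the libraries drawn in blue had Fga signals of 523 to 2509. Black bars are means on the log2(intensity + 7.63) scale. Slc38a2 reached 501 to 654 at 2 h from 121 to 179 at 0 h, and Slc1a1 sank to 226 to 262 at 5.5 h from 452 to 542.

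Slc38a3, the basolateral glutamine carrier that serves ammonia production, changed over time by the F test (adjusted p 0.00105) but in no single window against 0 h. Its signals at 0 h were 120, 196, 125 and 172. They were 34.6, 53.2 and 84.3 at 5.5 h, below all of 0 h, and 180, 169 and 453 at 12 h and 271, 190 and 224 at 18 h. At 6 h they were 101, 187 and 235, so the libraries of these neighbouring times did not overlap. The difference was -0.59 at 5 to 8 h (standard error 0.24, adjusted p 0.131) and 0.61 at 12 to 18 h (standard error 0.28, adjusted p 0.845). The 2 other tested members of the family, Slc38a5 and Slc38a10, had differences of -0.27 and -0.09 at 5 to 8 h, and neither was called in any comparison.

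Among the light chains, Slc7a6, which exchanges basic for neutral amino acids, rose, while no other tested light chain was called in a window against 0 h. Slc7a6 had signals of 31.7, 28.8, 26.5 and 33.1 at 0 h. Signals of 109, 132 and 139 at 2 h and 125, 134 and 100 at 4 h lay above every library of 0 h, with a difference of 1.79 (standard error 0.32, 3.46-fold, adjusted p 0.000132). At 5 to 8 h all 15 libraries, from 41.2 to 198 with a median of 82.1, lay above those of 0 h, and the difference was 1.21 (standard error 0.28, adjusted p 0.00299). The highest of them, 198, was the library of high Fga at 7 h, while the 11 libraries of low Fga ran from 41.2 to 110. Slc7a6 passed the floor on mean signals, 52.3, only through the windows in which it is high: its mean signal was 30.0 at 0 h, 27.3 at 12 to 18 h and 34.2 at 30 to 72 h, against 122 at 2 to 4 h and 79.1 at 5 to 8 h. A probe set that passes in this way had to differ, and with no floor on any probe set the adjusted p was 0.000234 at 2 to 4 h and 0.00483 at 5 to 8 h. Without the 7 libraries of high Fga, or with the floor at the 60th percentile, it was not tested. By 12 to 18 h its signals were 4.05 to 42.5, and the lowest of these was 18 h replicate 2. Slc7a6os, on the opposite strand, had a difference of -0.05 at 2 to 4 h and 0.02 at 5 to 8 h.

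Slc7a12, a member of the light chain family, changed over time (F test, adjusted p 0.00731). From 567, 420, 286 and 366 at 0 h it stood at 1074, 1247 and 565 at 2 h, at 326, 234 and 126 at 6 h and at 749, 869 and 696 at 18 h. Of these times, only at 18 h did all 3 libraries lie above all of 0 h. No window against 0 h passed the test: the difference was 0.67 at 2 to 4 h (standard error 0.30, adjusted p 0.156) and -0.22 at 5 to 8 h (standard error 0.26, adjusted p 0.682).

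Slc7a8, a basolateral light chain that exchanges neutral amino acids, had signals of 353, 355, 280 and 451 at 0 h. It ran from 157 to 335 with a median of 252 at 5 to 8 h, and 13 of 15 libraries lay below all of 0 h. The difference of -0.53 (standard error 0.20) did not pass the test (adjusted p 0.0863), nor did that of -0.54 at 2 to 4 h (standard error 0.23, adjusted p 0.129). Slc7a7, the basolateral light chain that exports basic amino acids, had 1026 to 1196 at 0 h and 730 to 1009 at 2 to 4 h, with all 6 libraries below those of 0 h. Its F test passed (adjusted p 0.0474), a call that ended without any 1 of 35 libraries, while the difference of -0.30 at 2 to 4 h did not (standard error 0.15, adjusted p 0.211). At 7 h the mean signal of Slc7a7 was 1587, above the 1102 of 0 h. Slc3a2, the basolateral heavy chain, likewise lay below all of 0 h (1214 to 1475) in all 6 libraries of 2 to 4 h (976 to 1167), with a difference of -0.35 (standard error 0.12, adjusted p 0.0537).

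The brush border pair that takes up cystine and basic amino acids, the heavy chain Slc3a1 and the light chain Slc7a9, had no call in the windows up to 8 h. Slc3a1 had signals of 3714 to 5497 at 0 h and 3718 to 4622 at 5 to 8 h (difference -0.05, standard error 0.09, adjusted p 0.782). At 72 h its libraries read 5672, 5789 and 6674, above all of 0 h, with a difference of 0.49 for that time, and its F test passed (adjusted p 0.046) but not without any 1 of 32 libraries (up to 0.232 without 72 h replicate 3). Slc7a9 ran from 1002 to 1076 at 0 h and from 849 to 1557 at 5 to 8 h, with a difference of -0.04 (standard error 0.12) and no call in any comparison. Slc7a5, the light chain for large neutral amino acids, was below the floor on signals, at 11.0 to 40.9 at 0 h and 28.9 to 90.0 at 2 to 4 h.

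Slc1a1, which takes glutamate and aspartate back from the filtrate, fell to its lowest level at 5.5 h and had returned by 30 h. Its brighter probe set had signals of 541, 541, 542 and 452 at 0 h and 262, 232 and 226 at 5.5 h. Over 5 to 8 h the lowest, median and highest signals were 226, 306 and 405, and all 15 libraries lay below those of 0 h. The difference was -0.75 (standard error 0.10, 1.68-fold lower, adjusted p 8.37e-07). In the 11 libraries of low Fga all 11 lay below, and without the 7 libraries of high Fga the difference was -0.75 (adjusted p 1.76e-07). At 12 to 18 h all 6 libraries, from 339 to 452, still lay below those of 0 h without a call (difference -0.37, adjusted p 0.347), and at 30 to 72 h signals were 453 to 643.

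At 2 to 4 h the brighter probe set of Slc1a1 had a difference of -0.35 (standard error 0.12, adjusted p 0.0448), with 5 of 6 libraries below all of 0 h. This call ended without any 1 of 7 libraries: 0 h replicates 1 (adjusted p 0.112), 2 (0.107) and 3 (0.121), 2 h replicates 2 (0.107) and 3 (0.0709), and 4 h replicates 1 (0.071) and 3 (0.0766). It also ended without arrays of letter b or c (0.163) and with no floor on signals (0.0597). The second probe set of Slc1a1 differed by -0.65 at 5 to 8 h (standard error 0.22, adjusted p 0.0474), from 275 to 594 at 0 h to 159 to 406, and that call ended without any 1 of 27 of the 52 libraries, with an adjusted p of up to 0.196. It also ended without the 7 libraries of high Fga (0.0627).

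The remaining amino acid carriers showed no call against 0 h. Slc7a1, an arginine and lysine carrier, had 3 probe sets that differed: the brightest had a difference of -0.05 at 2 to 4 h (standard error 0.22), the next 0.46 (standard error 0.19, adjusted p 0.126) with an F test past the threshold (adjusted p 0.034, and up to 0.0692 without 1 library), and the dimmest was not tested. Slc1a5, Slc6a18, Slc6a7, Slc6a9, Slc7a3, Slc1a3 and both tested probe sets of Slc6a20a, which carry neutral amino acids, glycine, proline, basic amino acids or glutamate, passed neither the F test nor any window against 0 h.

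Of the sugar carriers, Slc5a2, the sodium-coupled glucose carrier of the early proximal tubule, was lowest at 2 h. Signals were 903, 1176, 961 and 1157 at 0 h, 541, 458 and 867 at 2 h, and 681, 624 and 888 at 4 h. All 6 libraries of these times lay below all of 0 h, and the difference was -0.66 (standard error 0.18, 1.58-fold lower, adjusted p 0.0164). The call was lost when 0 h replicate 2 (adjusted p 0.0623) or 4 (0.0611) or 2 h replicate 2 (0.0522), the library with the high Alb signal, was removed. Signals of 5 to 8 h ran from 470 to 1152 and overlapped those of 0 h, with a difference of -0.37 (standard error 0.16, adjusted p 0.15). Its 72 h libraries read 996, 1507 and 1456.

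Slc2a5, the fructose carrier, had signals of 163, 167, 217 and 207 at 0 h. At 2 to 4 h they were 131, 183, 101, 95.2, 101 and 111, and 5 of 6 lay below all of 0 h. The difference was -0.64 (standard error 0.18, adjusted p 0.0172). This call ended without 0 h replicate 3 (adjusted p 0.0765), 0 h replicate 4 (0.0626) or 2 h replicate 3 (0.0654). Already at 0.25 to 1 h 10 of 12 libraries lay below all of 0 h, with a difference of -0.51 that was not called (standard error 0.16, adjusted p 0.217). In both windows later than 8 h the libraries of Slc2a5 overlapped those of 0 h.

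Slc2a2, the basolateral facilitated glucose carrier of the early proximal tubule, changed over time (F test, adjusted p 0.021, and 0.0522 without 4 h replicate 3) with a wide spread between libraries. Signals at 0 h were 353, 330, 342 and 297. At 4 h they were 134, 156 and 138 and at 5.5 h 130, 132 and 224, all below those of 0 h. At 8 h they were 144, 406 and 416, so the libraries of 1 time lay on both sides of the band of 0 h. Differences of -0.67 at 2 to 4 h (standard error 0.29, adjusted p 0.135) and -0.51 at 5 to 8 h (standard error 0.25, adjusted p 0.217) did not pass the test. Among the 4 libraries of high Fga at 5 to 8 h the signal of Slc2a2 ran from 106 to 478, and among the 11 others from 130 to 416.

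Slc2a1, the facilitated glucose carrier found in most tissues, and Slc5a1, the sodium-coupled glucose carrier of the late proximal tubule, were not called in any comparison. Slc2a1 had signals of 121 to 159 at 0 h and 136 to 241 at 5 to 8 h (difference 0.24, standard error 0.13, adjusted p 0.31), and Slc5a1 64.2 to 78.9 and 31.7 to 114 (difference -0.15, standard error 0.21, adjusted p 0.734). Both tested probe sets of Slc2a4, the insulin-responsive glucose carrier, and that of Slc2a8 had differences between 0.14 and 0.41 at 5 to 8 h without a call.

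The inositol carrier Slc2a13, which brings myo-inositol in with protons, was measured by 2 probe sets that differed in size. The brighter over all libraries had 72.7 to 90.5 at 0 h and 48.6 to 85.4 at 5 to 8 h, with 14 of 15 libraries below all of 0 h, and its difference of -0.35 (standard error 0.15) was not called (adjusted p 0.161). The other had signals of 113, 100, 94.3 and 89.9 at 0 h and was lower in all 15 libraries of 5 to 8 h. Its signals were 44.2, 37.6 and 13.0 at 6 h and 64.0, 14.3 and 10.8 at 7 h, but 55.2, 84.7 and 75.7 at 8 h. The difference of this probe set over 5 to 8 h was -1.34 (standard error 0.33, adjusted p 0.00457), and without the 7 libraries of high Fga it was -1.15 (adjusted p 0.00762). At 2 h, with 118, 110 and 77.1, it overlapped 0 h.

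Other osmolyte and metabolite carriers were not called against 0 h. Slc6a6, which takes up taurine, had a brighter probe set with 204 to 249 at 0 h and 136 to 404 at 5 to 8 h (difference -0.03, standard error 0.18), and a second one with a difference of -0.63 at 2 to 4 h (standard error 0.39, adjusted p 0.318). For the creatine carrier Slc6a8, differences at 2 to 4 h were -0.12 and -0.32 for the brighter and the other probe set, and at 12 to 18 h 0.25 and 0.38. The tested probe sets of Slc5a6, Slc6a13, Slc6a3 and Slc6a4 were called in no comparison.

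Calls by the F test fell on 8 of 23 probe sets of amino acid carriers and 4 of 10 of sugar and inositol carriers. The share over all tested probe sets was 16.1%. Under the main settings, none of the 8 sugar probe sets on the main array type was called higher in any window against 0 h. Over all tested probe sets at most 5.17% were called higher in these windows, so a count of 0 among 8 lies near that share. Without arrays of letter b or c the 4 F calls of sugar and inositol carriers ended. At 2 to 4 h, 7 of 23 probe sets of amino acid carriers had positive differences and the median was -0.12. Among the 10 of sugar and inositol carriers 2 were positive with a median of -0.34. Over all 9520 tested probe sets 3836 were positive, with a median of -0.07. At 5 to 8 h the medians were -0.11, -0.25 and -0.03, where the sugar carriers alone had -0.00 and the 2 probe sets of Slc2a13 -0.84. By single times the median of the sugar carriers was lowest at 4 h, at -0.38, and stood at 0.19 at 8 h, while that of the amino acid carriers stayed between -0.19 and 0.06. The difference between the classes was not tested, since several probe sets stand for 1 gene and the members were chosen with results known.

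**Figure D3:**
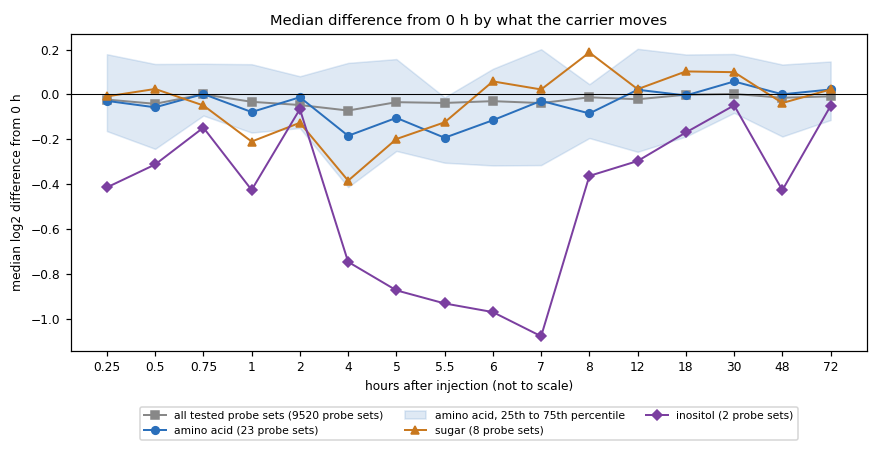
Median log2 difference from 0 h at the 16 times after injection for the tested probe sets of amino acid carriers (blue, 23, with the band from the 25th to the 75th percentile), sugar carriers (orange, 8), the inositol carrier Slc2a13 (purple, 2 probe sets of 1 gene) and all 9520 tested probe sets (grey). The sugar carriers reached -0.38 at 4 h, and the blue line stayed between -0.19 and 0.06.

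A comparison that leaves out the 0 h libraries set 5 to 8 h against 30 to 72 h. There 2 of 42 members were called higher and 11 lower, beside 12.5% and 13.8% of all tested probe sets. The count higher lay below these shares and the count lower above them, which was not tested. Without arrays of letter b or c the count lower was 5. Marker lists had lower calls too: 6 of 15 for proximal tubule, 4 of 7 for thick limb and distal tubule and 1 of 8 for collecting duct. For podocytes it was 4 of 5, for endothelium 2 of 6 and for leukocytes 2 of 8. Of these lists, 2 proximal tubule markers and 1 leukocyte marker were higher. Slc7a6 and Slc38a2 were higher by 1.05 (standard error 0.21, adjusted p 0.000208) and 1.00 (standard error 0.15, adjusted p 1.23e-06). Of 15 libraries at 5 to 8 h, 12 and 14 lay above every library of 30 to 72 h for these 2 genes. Slc7a6 was tested only through the windows in which it is high, as given above. Under the other settings that tested it, no floor among them, its adjusted p was at most 0.00798. Lower were both probe sets of Slc1a1 (-0.80, standard error 0.08, adjusted p 8.46e-11 for the brighter, all 15 libraries below every library of 30 to 72 h, and -0.49 for the other, adjusted p 0.0213), both of Slc2a13 (-1.02, adjusted p 0.00164, and -0.32, adjusted p 0.0384), and Slc7a12, Slc7a8, Slc2a2, Slc38a3, Slc5a2, Slc6a6 and Slc3a1.

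For Slc7a8 the signals were 157 to 335 with a median of 252 at 5 to 8 h and 296 to 587 with a median of 401 at 30 to 72 h, and 13 of 15 libraries lay below every library of the later window. That difference was -0.74 (standard error 0.15, adjusted p 0.000199). For Slc7a12 the medians were 336 and 587 with overlapping ranges, and the difference was -0.87 (standard error 0.20, adjusted p 0.000802). Slc3a1 differed by -0.29 (standard error 0.07, adjusted p 0.000995), Slc2a2 by -0.58 (standard error 0.19, adjusted p 0.0193) and Slc5a2 by -0.40 (standard error 0.12, adjusted p 0.0121), with overlapping ranges.

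Several of these calls rested on single libraries or on the libraries of high Fga. Without the 7 libraries of high Fga the difference of Slc38a3 moved from -0.51 (standard error 0.18, adjusted p 0.0324) to -0.29 (adjusted p 0.238). That of Slc6a6 moved from -0.38 (standard error 0.13, adjusted p 0.0296) to -0.30 (adjusted p 0.126), and that of the brighter probe set of Slc2a13 from -0.32 to -0.31 (adjusted p 0.0543). The call of Slc2a2 ended without 48 h replicate 1 (adjusted p 0.0556), and that of the second probe set of Slc1a1 without 30 h replicate 1 (0.055), 30 h replicate 2 (0.0608) or 48 h replicate 2 (0.0705). For Slc6a6 it ended without 30 h replicate 1 (0.0669), 48 h replicate 1 (0.0684), 8 h replicate 1 (0.0533), or the first (0.0522) or the second (0.0621) replicate of 72 h. That of Slc38a3 ended without any 1 of 8 libraries (30 h replicates 2 and 3, 48 h replicate 2, 72 h replicate 2, 5 h replicate 2, 5.5 h replicate 1, 6 h replicate 1 and 7 h replicate 3; adjusted p 0.0535 to 0.078). For the brighter probe set of Slc2a13 it ended without any 1 of 15 libraries (adjusted p up to 0.102). Without arrays of letter b or c the calls of Slc5a2 (0.203), Slc2a2 (0.0913), Slc38a3 (0.2), Slc6a6 (0.122), the second probe set of Slc1a1 (0.157) and the brighter of Slc2a13 (0.134) ended too.

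**Figure D4:**
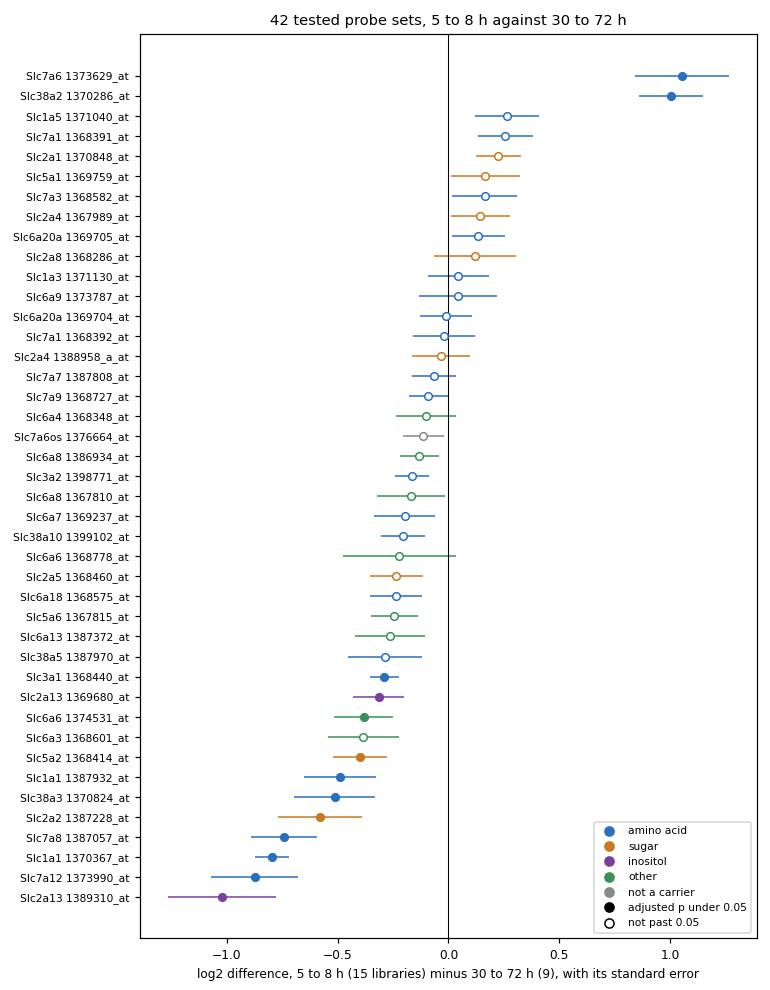
Log2 difference (x axis, 5 to 8 h minus 30 to 72 h, with its standard error) of the 42 tested probe sets, ordered by size and coloured by what the carrier moves; filled points passed an adjusted p of 0.05. Slc7a6 and Slc38a2 stand alone on the right, at 1.05 and 1.00. Of the 42 differences 30 lie below 0, beside 5308 of all 9520 tested probe sets.

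The early and the late window were compared by setting 2 to 4 h against 12 to 18 h. There 3 members were called higher and 6 lower, beside 6.09% and 6.14% of all tested probe sets. Higher at 2 to 4 h were Slc38a2 (1.15, adjusted p 6.81e-05), Slc7a6 (1.89, adjusted p 7.55e-06) and the second probe set of Slc7a1 (0.53, adjusted p 0.036). Here too Slc7a6 was tested only through the windows in which it is high. Under the other settings that tested it, no floor among them, its adjusted p was at most 0.000478. Lower were Slc2a5 (-0.68, adjusted p 0.00331), Slc7a7 (-0.52, adjusted p 0.00714), its heavy chain Slc3a2 (-0.40, adjusted p 0.00824), Slc38a3 (-0.77, adjusted p 0.0346) and the dimmer and the brighter probe set of Slc6a8 (-0.70 and -0.37, adjusted p 0.0216 and 0.0371). For Slc7a7 the 6 early libraries read 730 to 1009 and the 6 late ones 1012 to 1626, and for Slc3a2 976 to 1167 and 1330 to 1548, so neither pair of windows overlapped.

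The calls of 4 probe sets rested on single libraries. That of Slc38a3 ended when a single one of 7 was removed (replicate 3 of 12 h, 1 and 3 of 18 h, 1 and 3 of 2 h, 1 and 3 of 4 h), with adjusted p from 0.0585 to 0.15. That of Slc7a1 ended without any 1 of 8 (replicates 2 and 3 of 12 h, 1 and 2 of 18 h, 1 and 3 of 2 h, 2 and 3 of 4 h), with adjusted p from 0.0595 to 0.131. For the brighter probe set of Slc6a8 the call ended without any 1 of 8 (replicates 1 and 3 of 12 h, 2 and 3 of 18 h, 1 and 2 of 2 h, 1 and 2 of 4 h; adjusted p 0.0645 to 0.105). For the other it ended without 12 h replicate 1, 18 h replicate 2, 2 h replicate 2 or 4 h replicate 2 (0.0606 to 0.0795). Without arrays of letter b or c, which remove 2 of the 6 early libraries and 1 of the 6 late ones, the calls of Slc7a7 (0.131), Slc3a2 (0.0845), Slc7a1 (0.093) and the dimmer probe set of Slc6a8 (0.231) ended.

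The second array type held 55 member probe sets of 34 genes, of which 34 probe sets were tested among 5244. It held none of Slc38a2, Slc38a3, Slc7a6, Slc7a8, Slc7a12 or Slc2a13, so these could not be looked at there. Of 19 genes tested on both types, 12 had a difference of the same sign at 2 h and 12 at 6 h. At 2 h, 2 member probe sets of the second type were called higher and 1 lower, beside 4.82% and 4.98% of its tested probe sets. Slc2a4 had signals of 32.6, 22.5, 11.4 and 34.6 at 0 h and 84.7, 77.2 and 85.7 at 2 h. There was no overlap, and the difference was 1.67 (adjusted p 0.0147). On the main type both probe sets of Slc2a4 had differences of 0.08 and -0.16 at 2 to 4 h. The brighter of them had 0.14 at 2 h and 0.55 at 6 h, where the second type had 1.33 without a call (adjusted p 0.0838). On the second type the mean signal of Slc2a4 at 0 h, 23.5, lay under the floor of 25.3. This probe set was therefore tested only through its libraries of 2 h and 6 h (means 82.5 and 64.7). With no floor the adjusted p was 0.0232. A second probe set of Slc2a4 on this type, below the floor, read 16.9 to 35.1 at 0 h and 18.7, 21.3 and 32.5 at 2 h. Those ranges overlap, and this probe set was not tested. Without arrays of letter b or c the call of the first ended (adjusted p 0.0585). Slc2a3, a facilitated glucose carrier known best from neurons, had 48.9 to 50.9 at 0 h and 68.7, 90.5 and 90.7 at 2 h (difference 0.69, adjusted p 0.0409). Its call ended without any 1 of 9 of the 10 libraries, 2 h replicate 1 being the exception (adjusted p up to 0.0952). The other probe set of Slc2a3 lay below the floor and was not tested. Slc6a6 was lower at 2 h, with 155, 186, 98.5 and 143 at 0 h and 72.3, 45.3 and 65.8 at 2 h (difference -1.19, adjusted p 0.0286), and this call ended without 0 h replicate 1 (0.0614), 2 (0.0707) or 4 (0.0681) or 2 h replicate 2 (0.0774).

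At 6 h no member of the second type was called, beside 1.56% higher and 0.782% lower over its tested probe sets, and 5 members had an unadjusted limma p under 0.05. The brightest probe set of Slc1a1 there read 468, 469, 635 and 518 at 0 h and 242, 348 and 279 at 6 h, with no overlap and a difference of -0.85 (adjusted p 0.053), and its 2 other tested probe sets had differences of -0.48 and -0.46 without a call. For Slc5a2 the signals were 1310, 1866, 1792 and 1861 at 0 h and 902, 623 and 1392 at 2 h (difference -0.87, adjusted p 0.0586). Slc5a3, the sodium-coupled inositol carrier, which only this type carried, read 154, 59.6, 11.4 and 92.7 at 0 h and 149, 166 and 77.3 at 2 h, and its difference of 1.06 lay within that spread (adjusted p 0.32). Slc7a5 was bright enough to be tested here, at 80.1, 118, 82.8 and 83.0 at 0 h and 148, 126 and 156 at 2 h (difference 0.65, adjusted p 0.0552). Libraries of equal number on both types deviated together more than with any other number (r 0.188 to 0.557 over 2455 genes, which are not independent), so the second type may not hold separate samples.

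Genes around the carriers were counted on lists chosen with earlier results of these data known. Over all tested probe sets 5.17% were called higher and 4.8% lower at 2 to 4 h, and 4.98% and 4.73% at 5 to 8 h. Of 15 tested genes of the response to amino acid shortage, 4 were called higher and 1 lower at 2 to 4 h, and 3 higher and 1 lower at 5 to 8 h, with list medians of 0.22 and 0.09. Atf4, the transcription factor of that response, rose by 0.98 and 0.62 in these windows, Cebpb by 3.48 and 1.98 and Nupr1 by 1.06 and 1.27; Asns, the asparagine synthetase, rose by 0.65 at 2 to 4 h only, and Psph, of serine synthesis, fell by 0.71 and 0.82. Among 20 genes of amino acid sensing by mTORC1, Ddit4, an inhibitor of mTORC1, rose by 3.77 at 2 to 4 h and 2.72 at 5 to 8 h and Sesn1, of a family of leucine sensors, by 1.5 at 2 to 4 h, while Lamtor5, of the lysosomal scaffold, fell by 0.61 and 0.82. No other was called in these 2 windows.

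Of 8 tested partners and scaffolds of carriers, Nedd4l, a ubiquitin ligase that targets carriers, and Txnip, which restrains glucose uptake, rose at 2 to 4 h by 0.74 and 1.18. Later, at 5 to 8 h, 3 fell: Pdzk1, a brush border scaffold, by 0.48, the aminopeptidase Anpep by 0.43 and Cltrn, which brings neutral amino acid carriers to the brush border, by 0.35. Of 7 genes of osmolyte regulation only Sord, sorbitol dehydrogenase, was called in these windows, with a fall by 0.34 at 5 to 8 h, while Nfat5, the transcription factor of the osmotic response, had -0.08 there and Akr1b1, aldose reductase, -0.11. Of the 15 proximal tubule markers, 1 was called higher at 5 to 8 h, Cubn, a receptor for filtered proteins (0.66, adjusted p 0.000269), and 3 lower, the basolateral organic anion carriers Slc22a6 (-0.49) and Slc22a8 (-0.41) and the aminopeptidase named above.

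The members that could not be tested on the main type were those of Slc1a2, Slc1a6, Slc2a3, Slc36a1, Slc38a1, Slc38a4, Slc38a6, Slc5a5, Slc5a7, Slc6a2, Slc6a5, Slc6a11, Slc6a15, Slc6a17, Slc7a2, Slc7a5 and Slc7a10, and further probe sets of Slc1a3, Slc6a3, Slc6a9 and Slc7a1. Their mean signals at 0 h ran from 1.0 for Slc6a15 to 60.8 for Slc38a6. No probe set of the main type carried Slc5a3, Slc6a12 or Slc6a19 as its 1 symbol.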

How the data were processed

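The deposited files hold 1 array each, with 1 intensity per probe set on a linear scale, which the authors had scaled per array (the 2% trimmed mean was 150.03 to 150.04 on the main type and 150.19 to 150.23 on the second). The probe-summarising method was not given in the sources used here. Control probe sets were left out, both arrays of 5 h replicate 1 were averaged, and log2(intensity + pseudocount) was taken, with a pseudocount at the 10th percentile (7.63 and 3.56). Testing took the probe sets whose mean reached the 40th percentile and used limma 3.58.1 under R 4.3.3 (lmFit, eBayes with a trend, Benjamini-Hochberg), with 1 term per time and windows as averages of times; precision is limited by the number of arrays.

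The scripts were tested on simulated data. Members, lists and tests were chosen with earlier results of these data known. Genes given in full were those called by the F test, against 0 h or in 5 to 8 h against 30 to 72 h, and textbook kidney carriers; a gene with several probe sets is described by the brightest, and Slc2a5, Slc7a1 and Slc6a8 in 2 to 4 h against 12 to 18 h by that comparison's calls. Replicate numbers were not taken as pairs. Alternatives were a pseudocount, a floor and a scaling of another size, array weights, leaving out libraries or arrays, fits on the times compared, and a block.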

Additional observations from a re-analysis of the deposited data

Results flagged for a closer look

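In 5 of the 39 sets of 4 libraries at 0 h that were checked, 1 library stood far from the other 3, where chance gives about 1 in 20. The sets are not independent, since they reuse the same libraries and some are probe sets of 1 gene. No excess can be read from this count. The gap to the nearest library, as a share of the whole range, was 0.992 for the brighter probe set of Slc1a1 (0 h replicate 4 at 452 against 541 to 542) and 0.871 for the other (0 h replicate 3 at 275). On the second array type it was 0.907 for Slc7a5, 0.895 for a dimmer probe set of Slc1a1 and 0.886 for Slc5a2.

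In the comparison of 2 to 4 h with 12 to 18 h, the test of the difference between the windows passed for 9 probe sets. The differences were 1.15 for Slc38a2, 1.89 for Slc7a6, 0.53 for Slc7a1, -0.68 for Slc2a5, -0.77 for Slc38a3, -0.52 for Slc7a7, -0.40 for Slc3a2, and -0.70 and -0.37 for Slc6a8.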

How the results depend on the processing

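Of 2123 checks of the 36 carrier calls under other settings, 1962 kept direction and call, 161 lost the call and 0 reversed; 16 calls held under every setting run. The F test called 12 members, 20 with array weights, 5 without arrays of letter b or c and 8 to 15 without 1 library. At 0.25 to 1 h the count higher went from 1 to 0 with no floor, with the replicate block, or without b and c arrays, and lay between 0 and 1 without 1 library; the count lower was 1 with array weights. At 2 to 4 h the count higher (2) was 4 with array weights, 1 with the floor at the 60th percentile and 1 without the 7 libraries of high Fga; the count lower (3) was 7 with array weights, 5 on the times compared, 5 without the 7 libraries, and 1 to 4 without 1 library (1 without 0 h replicate 2 or 4). At 5 to 8 h the count higher (2) was 1 with the higher floor, and the count lower (3) was 7 with array weights and 2 to 4 without 1 library. Between 5 to 8 h and 30 to 72 h the count higher (2) was 1 with the higher floor and 2 to 3 without 1 library, and the count lower (11) was 5 without b and c arrays and 8 to 13 without 1 library. Between 2 to 4 h and 12 to 18 h the count higher (3) was 1 with the higher floor and 2 to 3 without 1 library, and the count lower (6) was 3 without b and c arrays and up to 8 without 1 library. On the second type at 2 h the count higher (2) was 1 with the higher floor, no floor, the times compared or the replicate block, and 1 to 2 without 1 library; the count lower (1) was 0 with array weights, 5 without b and c arrays and 0 to 2 without 1 library. At 6 h the count lower (0) was 1 with array weights, the higher floor, the times compared, or without b and c arrays, and 0 to 1 without 1 library. Deviations of libraries of equal number at different times had a mean r of 0.061, with 37.5% of 408 pairs over 0.1, against -0.029 and 15.9% of 864 pairs for unequal numbers; since not every pair passed 0.1, numbers were not taken as pairs. The replicate block ended the calls of Slc38a2 at 0.25 to 1 h (adjusted p 0.143), Slc2a5 at 2 to 4 h (0.0661), the second probe set of Slc1a1 at 5 to 8 h (0.121) and Slc2a3 on the second type (0.0775), and the F calls of Slc2a5 (0.0567) and Slc7a7 (0.0624). With no floor, F calls ended for Slc3a1 (0.14), Slc5a2 (0.0642), Slc7a1 (0.0574) and Slc7a7 (0.0702), and other calls for the second probe set of Slc1a1 at 5 to 8 h (0.0695), for the brighter of Slc2a13 against 30 to 72 h (0.0592), for Slc38a3 (0.0505), Slc7a1 (0.0553) and the brighter of Slc6a8 (0.0549) against 12 to 18 h, and for Slc2a3 (0.066). On the times compared they ended for the second probe set of Slc1a1 at 5 to 8 h (0.138) and against 30 to 72 h (0.0523), Slc2a2 (0.0529), Slc7a1 (0.0535) and Slc2a3 (0.0752). With array weights they ended for the brighter of Slc6a8 (0.0685), Slc2a3 (0.0745) and Slc6a6 on the second type (0.0618), and with quantile scaling for the brighter of Slc2a13 (0.0593) and, by the F test, Slc7a7 (0.0535). The cause of these shifts was not tested.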
